A study of Capra hircus with 2 samples.

Results

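The 42 cell cycle genes described here are a fixed list of symbols, and all 42 were found among the 27137 features of the count matrix of Liaoning cashmere goat skin. They comprised 16 genes of S phase, 25 genes of G2 and M phase (G2/M) and STMN1, which was kept apart from both. Scapular skin in anagen, the growth phase of the hair cycle, was taken from 2 healthy untreated goats, and single cells were captured with droplet 3′ chemistry. Of these goats, 1 had coarse cashmere (coarse type, CT-LCG) while the other had fine cashmere (fine type, FT-LCG), and the age and sex of the goats were not given in the sources used here. Each type therefore had 1 library, so goat, fibre type and library cannot be told apart. Neither a test nor a standard error between the types could be had, and all intervals below are 95% intervals that cover counting error only.

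A dividing cell copies its DNA in S phase, and the S genes encode the helicase that opens the origins, the clamp that holds the polymerase and the enzymes that supply nucleotides. In G2 and M phase the cell builds a spindle, condenses and separates its chromosomes and then degrades cyclins through the anaphase-promoting complex, and the G2/M genes encode these parts. In growing hair follicles the matrix at the base of the bulb divides and feeds the cortex and the inner root sheath, while in the epidermis division takes place mainly in the basal layer, and spinous and granular cells have stopped dividing.

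The deposited list kept 3443 cells of CT-LCG, against 9608 of FT-LCG. The median depth was 2314 UMIs (unique molecular identifiers, which count captured molecules) per cell in CT-LCG, against 6121.5 in FT-LCG, and 11 cell barcodes occurred in both libraries. Cells were clustered without the cell cycle genes. Cluster 7, led by the hair keratin gene KRT35, made the KRT35-led compartment, with 212 cells of CT-LCG, against 443 of FT-LCG. Cells of the remaining keratinocyte clusters were placed by the higher of their KRT14 and KRT10 counts, which gave 479 and 4007 KRT14 cells and 1195 and 2085 KRT10 cells. These clusters were not of the epidermis alone: cluster 8, with 51 and 468 cells, was outer root sheath-like (SFRP1, KRT19, LGR5), and cluster 16, with 25 and 153 cells, was led by FA2H, MMP7, SPP1 and KRT6A, so that the KRT14 cells include cells of the follicle. Cluster 17, with 33 and 97 cells and ACTG2 among its leading genes, was also kept there. Its best list was mural or muscle, at a score of 1.81. Granular cells with loricrin (108 and 330), stromal cells (171 and 283) and immune cells (153 and 162) completed the 6 compartments. Clusters 0 and 12, of low depth and with 1097 and 2239 cells together, entered none of them. The marker levels followed the names, with KRT35 at 22.7 and 35.7 UMIs per 10000 in the KRT35-led compartment and at 0.276 and 0.327 in KRT14 cells, and LOR at 50.4 and 93.1 in granular cells. Keratinocyte RNA was present outside keratinocytes as well: in FT-LCG the immune cells held KRT14 at 197 UMIs per 10000, close to the 272 of KRT14 cells, and the stromal cells held the inner root sheath gene TCHH at 47.1. Their part in the values of those compartments was not tested.

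The summed level of the 42 genes was highest in the KRT35-led cells, intermediate in KRT14 cells and lowest in granular cells in both libraries. It was 28.7 UMIs per 10000 (27.6 to 29.8) in KRT35-led cells of CT-LCG and 30.6 (30.2 to 31.0) in those of FT-LCG. KRT14 cells held 8.74 (8.48 to 9.01) in CT-LCG, against 15.6 (15.5 to 15.8) in FT-LCG. The order of the KRT35-led, KRT14, KRT10 and granular cells was the same in both goats. The distance between the KRT35-led and the KRT14 cells was not the same in these summed counts, in which deep cells weigh more. As the mean over cells this depended on the gene. DUT was then at 4.42 in KRT35-led and 1.68 in KRT14 cells of CT-LCG, and at 6.55 and 2.51 in FT-LCG. CENPF was at 0.755 and 0.942 in CT-LCG, and at 2.85 and 0.672 in FT-LCG. KRT10 cells held 2.97 and 2.63 UMIs per 10000, granular cells 1.56 and 1.19, stromal cells 4.48 and 5.00, and immune cells 9.70 and 10.3. Of the 42 genes, 40 had their highest level in the KRT35-led cells in CT-LCG and 39 did so in FT-LCG, with 37 genes doing so in both. How many of all features had their highest level there was not counted. The exceptions were KIF20A in CT-LCG, where 3 UMIs in stromal cells set the order, FOXM1, which had no UMI in CT-LCG, and the replication genes MCM3, MCM6 and GINS2, which were highest in KRT14 cells of FT-LCG.

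**Figure D1:**
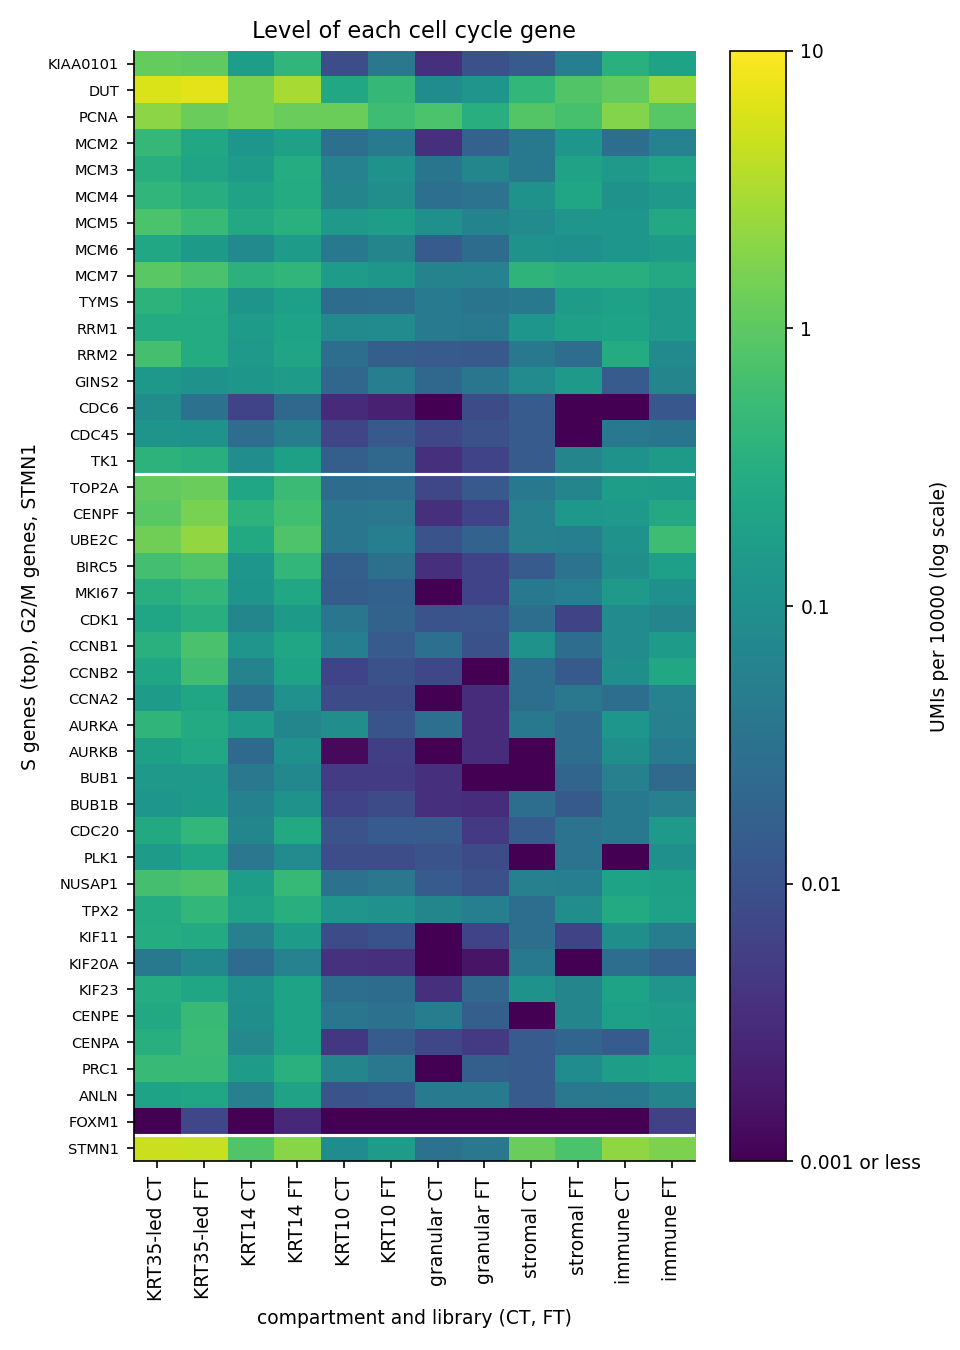
Level of each of the 42 cell cycle genes in 6 compartments of each library, in summed UMIs per 10000 on a logarithmic color scale, with the S genes on top, the G2/M genes below them and STMN1 in the last row. Both KRT35-led columns are the brightest for most genes, and PCNA and DUT stay visible in KRT10 and granular cells.

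A cell was called cycling when it held at least 3 UMIs of the 42 genes after every cell had been thinned to 1000 UMIs, so that deep and shallow cells were called on the same number of molecules. Cells with fewer than 1000 UMIs could not be thinned and were left out, which removed 25 and 24 KRT35-led cells and 14 and 133 KRT14 cells of CT-LCG and FT-LCG. In the KRT35-led compartment 61 of 187 cells of CT-LCG were cycling (32.6%, 26.0 to 39.8) and 171 of 419 cells of FT-LCG (40.8%, 36.1 to 45.7). Among KRT14 cells the share was 10.8% (8.09 to 13.9) in CT-LCG, against 12.2% (11.1 to 13.2) in FT-LCG. Cycling cells were thus 3.03 times as frequent (2.17 to 4.23) in the KRT35-led as in the KRT14 compartment of CT-LCG, and 3.36 times (2.91 to 3.87) in FT-LCG. The direction depended on how cells were counted. When cells were not thinned the ratio was 0.702 in CT-LCG, where the KRT35-led cells had a median of 1639.5 UMIs and the KRT14 cells 9027. Each cell was also placed by its own markers. A KRT35 cell then needed at least 5 of its 1000 thinned UMIs from the hair matrix and cortex list, which includes KRT35 and KRTAP11-1. This left 45 and 151 KRT35 cells, rich in hair genes. The ratio was then 0.396 in CT-LCG, against 0.654 in FT-LCG, and both intervals include a ratio of 1. The higher share therefore belonged to the cluster, most of whose cycling cells had little KRT35. Without thinning, 43.4% of the KRT35-led and 61.8% of the KRT14 cells of CT-LCG passed, against 76.7% and 56.7% in FT-LCG, where the median depths were 14032 and 7839 UMIs.

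KRT10 cells were rarely cycling, with 21 of 1144 in CT-LCG (1.84%, 1.14 to 2.79) and 24 of 2009 in FT-LCG (1.19%, 0.767 to 1.77). Granular cells, which should lack division and so give the background, had 0 of 108 and 0 of 327, which allows shares of up to 2.78% and 0.917%. The KRT10 share of CT-LCG lay below its limit, and the interval of that of FT-LCG reached below its own. As a whole, neither can therefore be told from a background set by so few granular cells. Part of the FT-LCG cells lay above the limit, by the part of KRT10 in their KRT14 and KRT10 UMIs. At 50 to 75% KRT10 the share was 3.85% (2.17 to 6.26), and at 75 to 90% it was 2.54% (1.10 to 4.94). The exact interval of the granular cells of FT-LCG reached 1.12%, and only the first of these classes lay wholly above that. That class also held cells with equal KRT14 and KRT10 counts, which are not KRT10 cells. In CT-LCG the intervals of these classes reached below the limit. The granular cells were deep, with median depths of 24521 and 15655 UMIs, and without thinning 56.5% and 29.4% of them held at least 3 UMIs of the list. Cycling was 5.86 times as frequent in KRT14 as in KRT10 cells of CT-LCG (3.56 to 9.64) and 10.2 times in FT-LCG (6.78 to 15.3). The size of this ratio depended strongly on the processing: it was 1.24 and 1.39 without thinning, 2.66 and 4.61 at 2 UMIs of the list, 37.5 in FT-LCG at 5 UMIs, 3.11 in FT-LCG at resolution 1.4, and 23.3 in CT-LCG with whole clusters, and was above 1 in each.

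**Figure D2:**
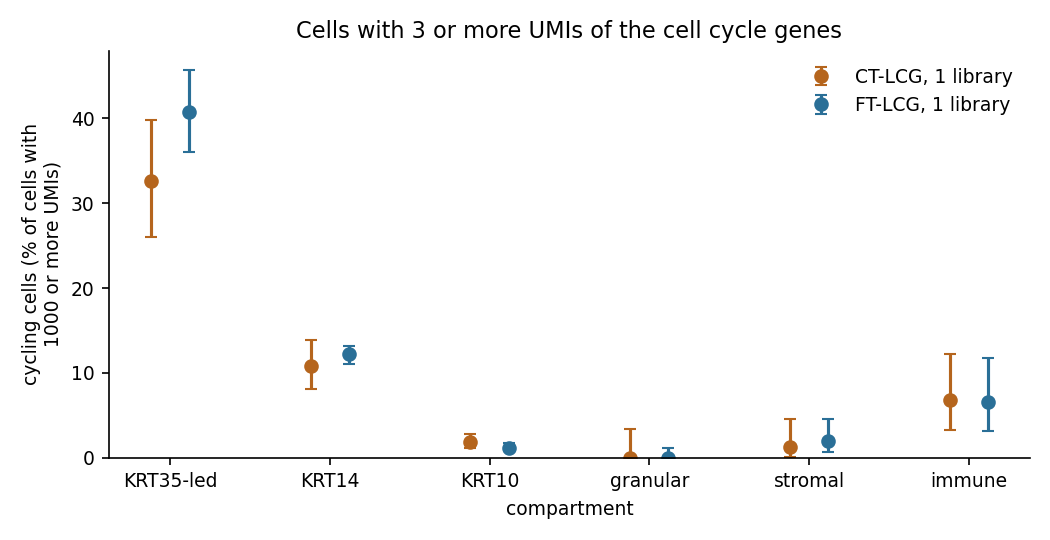
Share of cycling cells in 6 compartments, in percent of the cells with at least 1000 UMIs, with 1 point per library and exact binomial 95% intervals for counting error. The KRT35-led cells stand at 32.6% and 40.8%, the KRT14 cells at 10.8% and 12.2%, and the granular cells at 0.

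Between the goats, the share of cycling cells in the fine type was 1.25 times that in the coarse type in KRT35-led cells (0.988 to 1.58) and 1.13 times in KRT14 cells (0.859 to 1.49). Both intervals include a ratio of 1, but that changed with the processing. With another random seed the cells were clustered anew, and 207 and 427 thinned cells were KRT35-led, against 187 and 419. In KRT35-led cells the interval then lay above 1 (1.33, 1.05 to 1.69). It also lay above 1 at 2 UMIs of the list (1.26, 1.03 to 1.54) and at 2000 UMIs (1.43, 1.06 to 1.93). The same held in cells with at least 1000 genes (1.52, 1.04 to 2.21) and without thinning (1.77). In KRT14 cells the interval lay above 1 with whole clusters (1.63, 1.28 to 2.08) and below 1 without thinning (0.918, 0.851 to 0.990). Stromal cells were seldom cycling, with 2 of 155 in CT-LCG (1.29%, 0.157 to 4.58) and 5 of 250 in FT-LCG (2.00%, 0.653 to 4.61). Of those 5, 4 were endothelial-like. The CT-LCG share lay below the granular limit of 2.78%, and the FT-LCG interval reached below that of 0.917%. Neither stromal share can therefore be told from the background. Immune cells had a larger share, at 6.80% (3.31 to 12.2) and 6.58% (3.20 to 11.8), from 10 cycling cells in each library. These intervals overlap those of the stromal cells in both goats. The exact interval of the granular cells reached 3.36% in CT-LCG, just above the lower end for immune cells there. In FT-LCG it reached 1.12%, below the immune interval. The T cell-like cluster held 6 cycling cells of 53 and 4 of 46, the mast-like cluster 2 of 65 and 2 of 36, and the CD74-led cluster 2 of 29 and 4 of 70. Without the CD74-led cluster the immune share was 6.78% and 7.32%, and KRT14 was then at 5.48 and 71.8 UMIs per 10000.

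The S genes and the G2/M genes took similar parts of the counts in the dividing compartments. In thinned KRT35-led cells the S genes made up 58.4% (53.3 to 63.3) of the S and G2/M UMIs in CT-LCG, against 49.0% (46.0 to 52.0) in FT-LCG. In KRT14 cells they made up 51.6% (46.8 to 56.3) and 55.7% (54.3 to 57.2). The S share was thus higher in KRT35-led than in KRT14 cells of CT-LCG, with intervals that overlap, and lower in FT-LCG. The order depended on the processing: without thinning CT-LCG had 59.9% in KRT35-led and 65.4% in KRT14 cells, with whole clusters it had 58.4% in both, and with each cell placed by its own markers FT-LCG had 63.4% and 55.0%. Both goats had cells in every sub-cluster of the KRT35-led compartment, described below, but in different proportions. The part of these proportions in the S share was not tested. Single cells leaned the same way: S genes led in 63.9% (50.6 to 75.8) of the cycling KRT35-led cells of CT-LCG and in 48.0% (40.3 to 55.7) of those of FT-LCG, against 54.0% and 54.4% of the cycling KRT14 cells.

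DUT and PCNA carried much of the S share. DUT encodes dUTPase, which keeps uracil out of newly made DNA, and PCNA encodes the sliding clamp of the replication polymerases. DUT, PCNA and STMN1 together held 44.4% and 41.5% of the list's UMIs in KRT35-led cells, and 45.1% and 39.6% in KRT14 cells. Without DUT and PCNA the S share of thinned cells was 41.4% and 26.8% in KRT35-led cells, and 31.3% and 35.9% in KRT14 cells, and the order of the compartments within each library stayed as it was. Counts between genes are of 3′ ends, so they do not scale with transcript length, but capture can still differ between genes.

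DUT had the highest level of the 42 genes in KRT35-led cells of both goats. Its level was 5.87 UMIs per 10000 (5.40 to 6.38) in KRT35-led cells of CT-LCG and 6.91 (6.71 to 7.10) in those of FT-LCG. KRT14 cells held 1.55 and 3.02, KRT10 cells 0.252 and 0.463, and granular cells 0.0894 and 0.121. DUT was lower at each step from KRT14 over KRT10 to granular cells in both goats. PCNA did not follow that course: it was at 2.05 and 1.23 in KRT35-led cells, 1.56 and 1.22 in KRT14 cells, and still at 1.27 and 0.573 in KRT10 cells. In CT-LCG granular cells PCNA stood at 0.744 and made up 47.6% of all UMIs of the list. PCNA also serves DNA repair, and its log2 ratio of KRT14 over KRT10 cells was 0.31 in CT-LCG, against 1.09 in FT-LCG, where that of DUT was 2.62 and 2.70.

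The next S genes by level were MCM7, KIAA0101 and MCM5. MCM7 and MCM5 are subunits of the replicative helicase. MCM7 was at 0.946 and 0.719 UMIs per 10000 in KRT35-led cells and at 0.376 and 0.437 in KRT14 cells. MCM5 was at 0.736 and 0.502 in KRT35-led cells and at 0.261 and 0.340 in KRT14 cells. Both helicase genes were higher in KRT35-led than in KRT14 cells of either goat, by a log2 ratio of 1.33 and 0.72 for MCM7. KIAA0101 encodes a PCNA-binding factor and had the largest log2 ratio of KRT14 over KRT10 cells among the S genes of CT-LCG. It was at 1.14 (0.931 to 1.37) and 1.05 (0.975 to 1.13) in KRT35-led cells, at 0.170 and 0.434 in KRT14 cells, and at 0.00878 and 0.0391 in KRT10 cells. That ratio was 4.24 in CT-LCG, against 3.47 in FT-LCG.

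UBE2C, the ubiquitin-conjugating enzyme of the anaphase-promoting complex, had the highest level of the G2/M genes in KRT35-led cells of both goats, while CENPF was above it in KRT14 cells of CT-LCG. It was at 1.37 (1.14 to 1.62) and 2.21 (2.10 to 2.32) UMIs per 10000 in KRT35-led cells, and at 0.267 and 0.805 in KRT14 cells. KRT10 cells held only 0.0376 and 0.0525. CENPF, a kinetochore protein, was at 0.946 and 1.59 in KRT35-led cells and at 0.385 and 0.615 in KRT14 cells, with a log2 ratio of 1.30 and 1.37. This ratio was close in both goats, where that of UBE2C was 2.35 and 1.46. TOP2A, the topoisomerase that untangles sister chromatids, was at 1.10 and 1.21 in KRT35-led cells and at 0.227 and 0.532 in KRT14 cells. The goats were thus close in KRT35-led cells and apart in KRT14 cells in summed counts, but as the mean over cells TOP2A was close in KRT14 cells too, at 0.446 and 0.493. CENPF as the mean over cells was at 0.755 in KRT35-led and 0.942 in KRT14 cells of CT-LCG, so that its order there turned, and at 2.85 and 0.672 in FT-LCG.

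The other G2/M genes named by level had the same course. NUSAP1, a microtubule-binding protein of the spindle, was at 0.662 and 0.756 in KRT35-led and at 0.177 and 0.485 in KRT14 cells. BIRC5 (survivin), of the chromosomal passenger complex, was at 0.641 and 0.826 against 0.126 and 0.439. PRC1, which bundles microtubules at the spindle midzone, was at 0.494 and 0.511 against 0.164 and 0.349. All 3 genes showed a larger log2 ratio of KRT35-led over KRT14 cells in CT-LCG than in FT-LCG in summed counts (1.91 and 0.64 for NUSAP1, 2.34 and 0.91 for BIRC5, 1.60 and 0.55 for PRC1). As the mean over cells this order did not hold for PRC1, at 0.349 in KRT35-led and 0.209 in KRT14 cells of CT-LCG and at 0.677 and 0.282 in FT-LCG, nor for NUSAP1, at 0.660 and 0.313 in CT-LCG and at 0.812 and 0.373 in FT-LCG. CCNB1, which encodes cyclin B1, the partner of CDK1 at entry into mitosis, was at 0.347 and 0.700 in KRT35-led and at 0.122 and 0.233 in KRT14 cells. TPX2, the spindle factor that activates Aurora A, had the smallest log2 ratio of KRT35-led over KRT14 cells of the G2/M genes named here, at 0.58 and 0.42. TPX2 was at 0.294 and 0.452 in KRT35-led cells, 0.200 and 0.339 in KRT14 cells and 0.123 and 0.106 in KRT10 cells.

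STMN1 encodes stathmin, which destabilises microtubules and is released from that role by phosphorylation in mitosis. It was at 4.79 (4.36 to 5.25) and 4.54 (4.39 to 4.70) UMIs per 10000 in KRT35-led cells, and at 0.827 and 1.95 in KRT14 cells. It was also above the granular level of 0.0322 and 0.0404 in immune cells, at 2.14 and 1.61, and in stromal cells, at 1.23 and 0.743. FOXM1, the transcription factor known to drive many G2/M genes, was nearly absent from the counts. It had 0 UMIs in all of CT-LCG, and in FT-LCG there were 5 UMIs in KRT35-led and 11 in KRT14 cells, too few for a ratio in CT-LCG.

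Relative to KRT14 cells, the KRT35-led cells had a higher level of nearly the whole list. Among the 39 genes with at least 20 UMIs over both compartments in each library, 39 had a higher level in CT-LCG, against 36 in FT-LCG. How many of all features had a higher level, at any ratio, was not counted. At least 2-fold higher in both libraries were 16 of the 39 (3 of 15 S and 12 of 23 G2/M genes, with STMN1), where 4.57% of all 10164 features tested were. The median log2 ratio of the S genes was 1.57 in CT-LCG, against 0.464 in FT-LCG, that of the G2/M genes 1.89 and 1.08, and that of all features 0.0601 and -0.00255. The 3 S genes were DUT, KIAA0101 and CDC45, a helicase cofactor. As the mean over cells, which gives each cell the same weight, 35 and 37 of the 39 were higher in KRT35-led cells, and the share of all features was not counted that way.

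**Figure D3:**
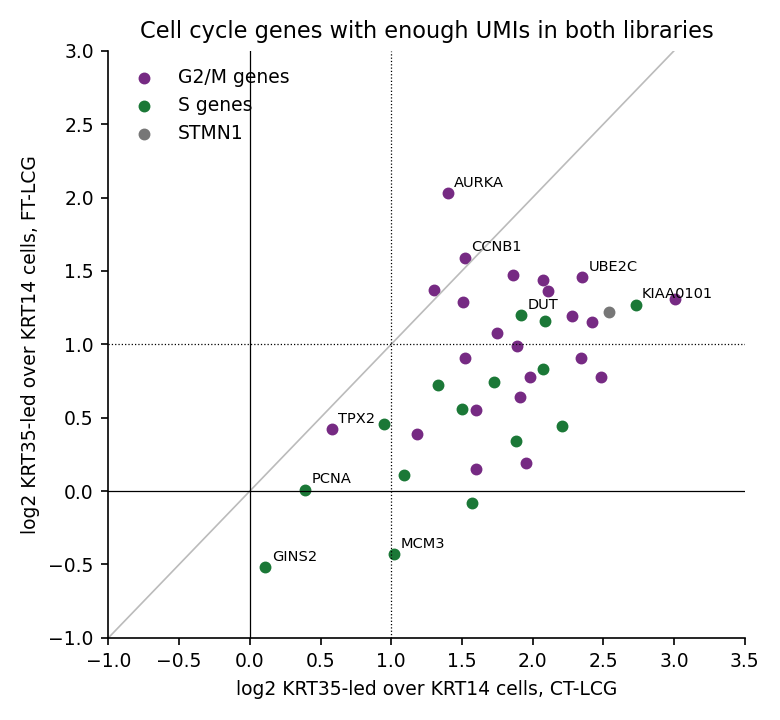
Log2 ratio of the level in KRT35-led over KRT14 cells for the 39 cell cycle genes with at least 20 UMIs, with CT-LCG on the horizontal and FT-LCG on the vertical axis and 1 point per gene. The dotted lines mark a 2-fold difference, the grey line marks equal ratios, and most points lie below it, with MCM3, MCM6 and GINS2 under 0 in FT-LCG.

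Between KRT14 and KRT10 cells the separation was wider. At least 2-fold higher in KRT14 cells of both libraries were 32 of 38 genes tested (12 of 15 S and 19 of 22 G2/M genes, with STMN1), where 9.04% of 11968 features were. The 6 genes that were not were PCNA, MCM5, RRM1, CDK1, AURKA and TPX2. The median log2 ratio was 1.98 and 1.75 for the S genes and 2.57 and 3.77 for the G2/M genes, against 0.136 and 0.197 for all features. The median ratio of the G2/M genes was thus above that of the S genes in both goats, a difference that was not tested.

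The passage from KRT14 to KRT10 within the keratinocytes was followed cell by cell through the share of KRT10 in the KRT14 and KRT10 UMIs of a cell. In FT-LCG the share of cycling cells went from 14.4% (13.0 to 15.8) of 2576 cells with under 10% KRT10 to 8.97% at 10 to 25%, 6.23% at 25 to 50%, 3.85% at 50 to 75%, 2.54% at 75 to 90% and 0.150% above 90%. In CT-LCG the first 3 of these classes held 9.04% (5.15 to 14.5), 11.7% and 11.7% and did not differ beyond their intervals, and the last 3 held 5.29%, 3.94% and 0.403%. A decline in the upper classes was therefore common to both goats. Along the same scale the mean of G2/M UMIs per 1000 was 0.541 in the first and 0.0427 in the last class of FT-LCG, and that of S UMIs 0.738 and 0.160. In CT-LCG the G2/M mean was 0.283 in the first class, 0.611 in the third and 0.0698 in the last.

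**Figure D4:**
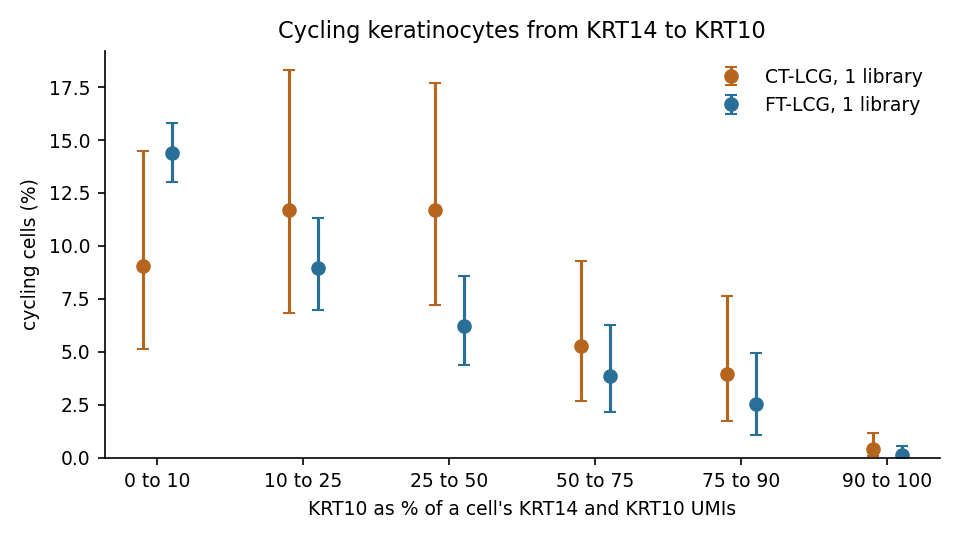
Share of cycling cells among keratinocytes, in percent, by the part of KRT10 in a cell's KRT14 and KRT10 UMIs, with 1 point per library and exact binomial 95% intervals for counting error. FT-LCG declines across all 6 classes from 14.4% to 0.150%, and CT-LCG stays near 9.04% to 11.7% up to the class of 25 to 50% and then declines to 0.403%.

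Keratin levels in the cycling cells themselves were taken from the thinned counts, on which the call of cycling cells was also made. Cycling KRT14 cells of FT-LCG held KRT14 at 276 UMIs per 10000 (272 to 281) and the other KRT14 cells at 270 (268 to 271), against 176 and 202 in CT-LCG. KRT10 was at 19.4 in the cycling and 27.8 in the other cells of FT-LCG, and at 33.2 and 45.2 in CT-LCG. KRT1, the partner keratin of KRT10, was at 9.72 and 19.0 in FT-LCG and at 34.8 and 51.6 in CT-LCG. Cycling cells among the KRT14 cells therefore carried less of both spinous keratins. The few cycling KRT10 cells, 21 and 24 in number, carried more KRT14 than the other KRT10 cells, at 33.8 and 82.1 against 20.9 and 34.8, and less KRT10, at 120 and 258 against 249 and 367.

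Within the KRT35-led compartment, cycling cells held less KRT35 than the other cells. KRT35 stood at 4.59 UMIs per 10000 (3.05 to 6.63) in the cycling and 34.4 (31.3 to 37.8) in the other cells of CT-LCG, and at 6.61 (5.45 to 7.94) and 58.7 (55.7 to 61.8) in FT-LCG. Among cells with no KRT35 UMI per 1000, 45.3% of 106 and 58.2% of 232 were cycling. Among those with 1 to 9 UMIs 19.7% of 66 and 28.6% of 126 were, and among those with 10 or more 0 of 15 and 0 of 61, which allows up to 20.0% and 4.92%. The cortex gene KRTAP11-1, a keratin-associated protein of the fibre, was at 1.15 and 0.526 in cycling and at 6.43 and 16.5 in other cells. Cells with 1 to 9 UMIs of KRTAP11-1 were nonetheless cycling in 35.0% of 20 in CT-LCG, where 32.9% of those with none were, and in 17.6% of 34 in FT-LCG, where 43.9% of those with none were. LEF1 and MSX2, transcription factors of the hair matrix, were sparse. MSX2 was at 1.97 (1.02 to 3.44) in cycling and 1.03 (0.549 to 1.76) in other cells of CT-LCG, and at 0.760 and 0.766 in FT-LCG. LEF1 was lower in cycling cells of both goats, with intervals that overlap. It was at 0.656 (0.179 to 1.68) and 0.952 (0.492 to 1.66) in CT-LCG, and at 0.234 (0.0637 to 0.599) and 0.766 (0.461 to 1.20) in FT-LCG.

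Clustered again without cell cycle genes, the compartment split into 6 sub-clusters. Sub-clusters 1 and 5 held the cell cycle genes at the highest level and had little KRT35. Little KRT35 was not particular to them. It was at 2.84 and 1.43 UMIs per 10000 in sub-cluster 2, with 17.1% and 40.0% of cells cycling. In sub-cluster 3 it was at 0.681 and 0.212, with 19.0% and 37.5% cycling. In sub-cluster 1 the list was at 48.4 UMIs per 10000 (45.0 to 51.9) in 73 cells of CT-LCG and at 71.9 (69.4 to 74.4) in 58 cells of FT-LCG, and 63.6% (50.9 to 75.1) and 84.6% (71.9 to 93.1) of its thinned cells were cycling. In sub-cluster 5 it was at 58.0 (56.8 to 59.2) in 80 cells of FT-LCG, of which 71.2% (60.0 to 80.8) were cycling, and at 41.8 in only 6 cells of CT-LCG. KRT35 was at 3.43 and 5.96 in sub-cluster 1, led by FABP7, CXCL14 and MT3, and at 0.254 and 3.05 in sub-cluster 5, led by MMP7, MGP and SPP1. MSX2 was at 1.23 and 1.72 in sub-cluster 1, where KRT14 cells had 0.0904 and 0.0741. Within the compartment MSX2 was not particular to sub-cluster 1, being at 2.27 and 0.947 in sub-cluster 0 and at 2.12 and 1.08 in sub-cluster 4. LEF1 was at 0.490 and 0.256 in sub-cluster 1, against 0.547 and 0.589 in the whole compartment.

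The S and G2/M genes differed between the goats in sub-cluster 1. The S genes were at 24.1 UMIs per 10000 in CT-LCG, against 28.8 in FT-LCG, and the G2/M genes at 14.3 and 30.3. The S share of the thinned S and G2/M UMIs was 62.2% (55.9 to 68.3) in CT-LCG, against 45.7% (39.7 to 51.7) in FT-LCG. In sub-clusters 2, 3 and 5 the S share was also lower in FT-LCG, with intervals that overlap. In sub-clusters 0 and 4 it was higher in FT-LCG, again with intervals that overlap. The median depth of the cells of sub-cluster 1 was 1530 UMIs in CT-LCG, against 3731.5 in FT-LCG, and KRT10 stood at 45.8 and 6.61. The part of these values in the difference in sub-cluster 1 was not tested.

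The sub-clusters with fibre or sheath genes had fewer cycling cells. Sub-cluster 4, with KRT35 at 66.6 and 81.2 and KRTAP11-1 at 16.8 and 258 UMIs per 10000, held the list at 10.1 (8.47 to 12.1) and 1.67 (1.25 to 2.18). Cycling were 6 of its 48 cells in CT-LCG and 0 of 39 in FT-LCG, which allows up to 7.69%. Sub-cluster 0, with KRT35 at 125 and 93.5 but little KRTAP11-1 (2.69 and 2.42), had 0 cycling of 11 cells and 23 of 126 (18.3%, 11.9 to 26.1). The list stood at 3.62 (2.52 to 5.03) in sub-cluster 0 of CT-LCG, below sub-cluster 4 of that goat, and at 16.1 (15.6 to 16.6) in sub-cluster 0 of FT-LCG, above sub-cluster 4. The order of these sub-clusters was thus opposite in the goats, while both lay below sub-clusters 1 and 5. Sub-cluster 3, with the inner root sheath keratin gene KRT25 at 63.3 and 235, held the list at 29.3 and 25.6, and 4 of 21 and 27 of 72 of its cells were cycling (19.0% and 37.5%). Sub-cluster 2 was led by ELOVL3, FAR2 and CIDEA, genes of lipid metabolism, and had KRT35 at only 2.84 and 1.43. It was the one in which G2/M genes were above S genes in both goats, at 6.90 and 8.46 against 4.60 and 4.98. Without sub-cluster 2 the share of cycling cells was 3.37 times that of KRT14 cells in both libraries.

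**Figure D5:**
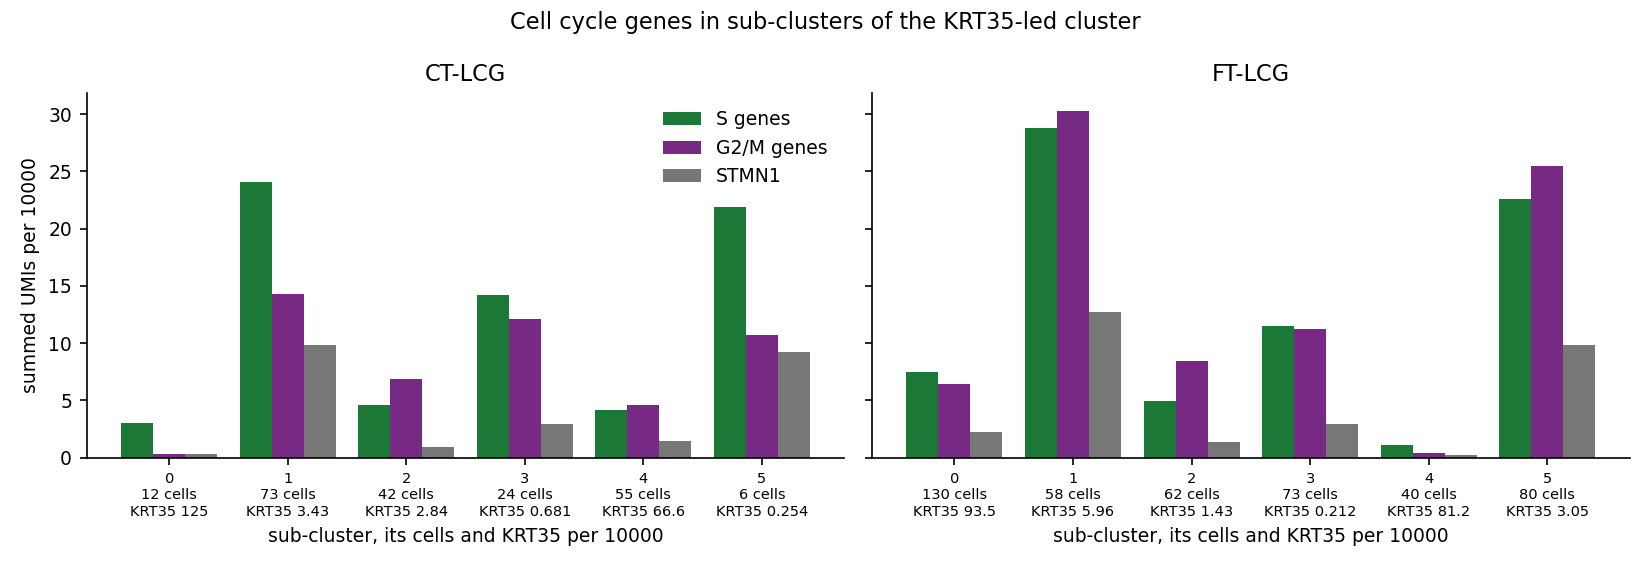
Summed UMIs per 10000 of the S genes, the G2/M genes and STMN1 in the 6 sub-clusters of the KRT35-led cluster, with CT-LCG on the left and FT-LCG on the right, and the number of cells and the KRT35 level under each group of bars. The S and STMN1 bars of sub-clusters 1 and 5 are the tallest in both panels. In CT-LCG the G2/M bar of sub-cluster 3 (12.1) stands above that of sub-cluster 5 (10.7). Within FT-LCG the bars of sub-cluster 4 are the lowest.

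In KRT14 cells, most genes of the list were higher in the fine type when counts were summed over cells, and the median ratio was smaller when each cell counted equally. From summed counts, 21 of 41 genes were at least 2-fold higher in FT-LCG (2 of 16 S and 18 of 24 G2/M genes, with STMN1), where 9.86% of 13645 features were, and 1, the kinase gene AURKA, was at least 2-fold lower, where 7.62% of features were. As the mean over cells, 5 of 41 were at least 2-fold higher (CDC6, CDC45, AURKB, CDC20 and ANLN), where 13.6% of features were. AURKA alone was at least 2-fold lower, where 7.90% were. The median log2 ratio of the list was 1.01 from sums, against 0.0144 for all features. As the mean over cells it was 0.43, against 0.09 for all features. The cycling KRT14 cells held 4310 UMIs in the median in CT-LCG, below the 10005 of the other KRT14 cells. In FT-LCG they held 10805, above the 7834 there. The part of these depths in the gap between sums and means over cells was not tested. The log2 ratio of FT-LCG over CT-LCG was 1.59 from sums and 0.56 as the mean over cells for UBE2C, 1.22 and 0.14 for TOP2A, and 0.67 and -0.49 for CENPF. It was 0.96 and 0.58 for DUT, and -0.36 and -0.55 for PCNA. AURKA, which encodes the Aurora kinase of the centrosome, was at -1.25 and -2.05.

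In KRT35-led cells fewer genes of the list were at least 2-fold apart between the goats in summed counts. There, 1 of 41 genes, the cyclin gene CCNB2, was at least 2-fold higher in FT-LCG, where 6.22% of 10640 features were, and 2 S genes, RRM2 and CDC6, were at least 2-fold lower, where 9.82% were. As the mean over cells 6 G2/M genes (CENPF, CCNB2, CCNA2, KIF20A, CENPE and CENPA) were at least 2-fold higher, where 15.2% of features were. None was at least 2-fold lower, where 10.2% were. The S and the G2/M genes differed in direction. From sums, the median log2 ratio was -0.444 for the S genes and 0.411 for the G2/M genes, against -0.0902 for all features. As the mean over cells these medians were -0.21 and 0.56, against 0.09. RRM2, the small subunit of ribonucleotide reductase, had a log2 ratio of -1.21 from sums, and CDC6, which licenses origins, of -1.66 on few UMIs.

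Within cycling cells the G2/M genes went together more closely than the S genes. Among KRT35-led and KRT14 cells thinned to 5000 UMIs with at least 9 UMIs of the list, the median Pearson correlation across cells over pairs of G2/M genes was 0.35 in 564 cells of FT-LCG, and 276 of 276 pairs were positive. Pairs of S genes had a median of 0.12, with 114 of 120 positive, and pairs of an S and a G2/M gene had -0.06, with 98 of 384 positive. In CT-LCG only 38 cells and 14 genes could be used, with medians of 0.50, 0.07 and 0.01 in the same order. TOP2A and UBE2C were the closest pair in both libraries (0.67 in FT-LCG and 0.77 in CT-LCG), and MCM5 with CENPF had a negative value in both (-0.31 and -0.38). These values are descriptions, since the cells of a library share its depth and its goat and were chosen by the sum of the same genes.

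Wider lists of cell cycle genes gave smaller counts. Of the DNA replication list, 2 of 25 genes tested were at least 2-fold higher in KRT35-led than in KRT14 cells of both libraries, where 4.57% of all features were, and 9 of 26 in KRT14 over KRT10 cells, where 9.04% were. Its most abundant genes differed by less than 2-fold between KRT35-led and KRT14 cells: the histone chaperone NASP was at 2.27 and 1.27 UMIs per 10000 in KRT35-led and at 1.62 and 1.16 in KRT14 cells, and SLBP, the stem-loop binding protein of histone mRNA, at 1.03 and 0.973 against 1.44 and 1.56. The uracil glycosylase UNG was at 0.746 and 0.480 against 0.492 and 0.424. Of the mitosis list, 7 of 33 and 26 of 35 genes passed the same limits, against the same 4.57% and 9.04% of all features. HMGB2, a chromatin protein, was at 4.22 and 3.24 in KRT35-led and at 2.61 and 2.28 in KRT14 cells, and UBE2S, the chain-extending partner of UBE2C, at 3.21 and 5.51 against 2.70 and 2.33. CKS2, a subunit of cyclin-dependent kinases, was at 3.12 and 2.91 against 3.29 and 1.44, and was still at 3.74 in KRT10 cells of CT-LCG.

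Of the regulators of G1, 4 of 26 were at least 2-fold higher in KRT35-led than in KRT14 cells, against 4.57% of all features, and 6 of 25 in KRT14 over KRT10 cells, against 9.04%. From KRT35-led to granular cells the inhibitor CDKN1A (p21) ran the other way. It was at 3.51 and 3.24 UMIs per 10000 in KRT35-led cells, 8.65 and 5.46 in KRT14 cells, 12.7 and 11.3 in KRT10 cells and 14.4 and 13.4 in granular cells. Immune cells of CT-LCG broke this order, with CDKN1A at 29.4 and the list at 9.70, both above KRT14 cells. Stromal cells of CT-LCG were below KRT14 cells in both. In FT-LCG immune cells kept the order, with CDKN1A at 9.27 and the list at 10.3, and stromal cells also had more CDKN1A and less of the list than KRT14 cells. The stress-induced gene GADD45B was at 4.98 and 1.75 in KRT35-led and at 6.29 and 5.16 in KRT14 cells. CCND1, which encodes cyclin D1, was at 3.72 and 3.83 in KRT35-led, 4.17 and 4.88 in KRT14 and 3.91 and 5.57 in KRT10 cells. Granular cells held 1.66 and 2.21, so CCND1 was similar in KRT14 and KRT10 cells and lower in granular cells.

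Genes outside all lists were ranked by their ratio of cycling over other cells within a compartment, among those with at least 50 UMIs and a ratio above 1 in both libraries. In KRT14 cells the first 10 included ARHGAP11A, SPC24, KNSTRN, DIAPH3, CENPW, LOC106501755, SKA1, LXN and CHEK1. Of these, SPC24, KNSTRN, SKA1 and CENPW serve the kinetochore or the spindle, and CHEK1 is the checkpoint kinase of replication. SPC24 had 63 UMIs in the 471 cycling and 7 in the 3403 other KRT14 cells of FT-LCG, a log2 ratio of 5.93, and 5 and 1 in CT-LCG. ARHGAP11A had 33 and 9 UMIs in FT-LCG and 12 and 0 in CT-LCG. LXN, an inhibitor of carboxypeptidases with no known place in the division machinery, had 37 and 25 in FT-LCG and 4 and 1 in CT-LCG.

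In KRT35-led cells the first 10 were LOC102181348, RNASEH2C, CYR61, LOC102182181, LOC102183306, LOC102188072, LOC102188339, LOC108637680, HDGF and ACP1. The ratios were lower here than in KRT14 cells: LOC102181348 had 6 UMIs in cycling and 2 in other cells of CT-LCG and 42 and 6 in FT-LCG, a log2 ratio of 3.25 there. LOC102188072 was the most abundant of them, with 228 UMIs in 61 cycling and 109 in 126 other cells of CT-LCG and with 515 in 171 and 195 in 248 cells of FT-LCG. RNASEH2C, a subunit of the nuclease that removes ribonucleotides from DNA, had 13 UMIs in cycling and 1 in other cells of CT-LCG and 27 and 16 in FT-LCG. LOC genes are given by identifier alone, since the reference table used here pairs them with no other name.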

How the data were processed

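The authors made the deposited counts (UMIs per gene and barcode, not normalized) with Cell Ranger, version 3.0.2 per the file headers, and Seurat 3.1.1 is named in the submitters' processing notes. The goat genome build and annotation were not given in the sources used here. Both libraries were in 1 matrix of 27137 features and 17299 barcodes, and the list of 13051 kept cells, also deposited by the authors, gave the library and fibre type of each cell, which the sample labels did not. The cell cycle genes, the other lists and the rules were chosen with earlier results of these data known.

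Counts were scaled to 10000 UMIs per cell, log-transformed and clustered (2000 variable genes, 10 principal components, Harmony written in numpy, 20 neighbours, Leiden at resolution 1.0, and 0.5 for sub-clusters; scanpy 1.11.5, leidenalg 0.10.2) without the 144 cell cycle genes. Clusters took a compartment from marker lists when the mean log2 fold was at least 2. Clusters with under 20 cells in a library, or with a median depth under 1 in 3 of the library's in either library and no own marker among their first 10 genes, were left out. Splitting the other keratinocytes cell by cell was decided after the data were seen, because 1 cluster had UBE2C and NUSAP1 among its first 6 genes, after SNAI1 and PHLDA2. The 62 cells with equal counts were left out of both compartments. Those that could be thinned still entered the classes by part of KRT10, at 50 to 75%. The other keratinocytes also held cluster 1, led by STAR and LTF, which matched no list. A Scrublet run marked 0 doublets in both libraries and so had not worked, and the cells with the highest scores were removed as an alternative. Levels are summed UMIs per 10000 with exact Poisson intervals, shares have Clopper-Pearson intervals at 95%, ratios of shares have intervals on the log scale, and log2 ratios had 0.5 UMI added to each count. A count of 0 was given a limit of 3 counts. Genes were named by level (5 S and 8 G2/M genes, 3 of each other list) or by the ratio in cycling cells, of which 1 is not reported here. Total counts were 27890472 UMIs in CT-LCG, against 85400323 in FT-LCG. The ratios, the thinned call and the clustering were checked on simulated counts, in easier cases than these data. The simulated cycling cells held more of the list than any sub-cluster did in the mean. The clustering check used distinct cell types and a lower resolution, so it did not check the split of the compartments. KRT85, KRT15, promoter motifs and mitochondrial genes were not analysed here.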

Additional observations from a re-analysis of the deposited data

Results flagged for a closer look

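Barcodes that the deposited list did not keep also held the cell cycle genes. Their level was 6.56 UMIs per 10000 (6.21 to 6.93) over 2659 barcodes of CT-LCG and 13.1 (12.4 to 13.8) over 1589 of FT-LCG, where the kept cells had 4.98 and 11.4. They were set apart as a signal in barcodes that no comparison used.

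For 5 S genes the direction of a ratio was opposite in the 2 groups compared, with intervals on both sides that leave out 0. The differences themselves were not tested. MCM3, a helicase subunit, had a log2 ratio of KRT35-led over KRT14 cells of 1.02 (0.36 to 1.63) in CT-LCG and of -0.43 (-0.68 to -0.19) in FT-LCG. The other 4 had a lower level in FT-LCG than in CT-LCG among KRT35-led cells and a higher one among KRT14 cells. The log2 ratio of FT-LCG over CT-LCG was -0.93 and 0.61 for MCM2, -0.56 and 0.38 for MCM5, -1.21 and 0.57 for RRM2, and -1.66 and 1.63 (0.25 to 4.15) for CDC6, which had only 3 UMIs in KRT14 cells of CT-LCG. As the mean over cells the ratios were -0.74 and 0.20 for MCM2, -0.03 and 0.24 for MCM5, -0.57 and 0.20 for RRM2 and -0.97 and 2.19 for CDC6, so that MCM5 was then close to 0 in KRT35-led cells.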

How the results depend on the processing

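Over 18 results and 167 alternatives, 115 values stayed within the interval or count limit of the reported value, 49 moved beyond it, and 3 turned the direction of a ratio whose interval left out 1. The share of KRT14 cells in FT-LCG over CT-LCG, whose interval included 1, also went from above to below 1, at 0.918 without thinning and 0.931 with G2/M genes alone. The cause was not tested. The 3 were the cycling share of KRT35-led over KRT14 cells, at 0.702 in CT-LCG without thinning, and at 0.396 in CT-LCG, against 0.654 in FT-LCG with each cell placed by its own markers. In the order CT-LCG then FT-LCG where both are given, that ratio was 2.08 and 2.48 with cells thinned to 2000 UMIs, and in FT-LCG 2.53 at 2 UMIs of the list, 1.35 without thinning and 2.66 at resolution 1.4. The share of KRT14 over KRT10 cells was 2.66 and 4.61 at 2 UMIs, 37.5 in FT-LCG at 5 UMIs, 3.13 in CT-LCG at 2000 UMIs, 1.24 and 1.39 without thinning, 2.75 and 2.53 by own markers, 3.11 in FT-LCG at resolution 1.4, 10.2 in CT-LCG without Harmony, and 10.0 and 16.6 in cells with at least 1000 genes. The ratio of FT-LCG over CT-LCG in KRT35-led cells was 1.77 without thinning and 1.94 by own markers, and ranged from 1.02 to 1.94 over 17 alternatives. The S share in KRT35-led cells was 46.4% and 30.6% without STMN1 and DUT, and 82.4% and 63.4% by own markers. In KRT14 cells it was 42.3% and 43.6% without STMN1 and DUT, 65.4% and 54.2% without thinning, 56.9% in CT-LCG at 2000 UMIs, 58.2% in FT-LCG without Harmony, and 59.2% and 58.2% in cells with at least 1000 genes. Features at least 2-fold higher in KRT35-led cells numbered 275 at 50 UMIs and 1177 with 1 UMI, against 465. As the mean over cells, the genes of the list at least 2-fold higher in FT-LCG numbered 5 in KRT14 and 6 in KRT35-led cells, and 0 were lower in KRT35-led cells.

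Of the alternatives chosen after seeing the data, whole clusters for KRT14 and KRT10 gave 4.53 for KRT35-led over KRT14 cells of CT-LCG, 23.3 and 17.5 for KRT14 over KRT10 cells, 58.4% for the S share of KRT14 cells of CT-LCG, and 1.63 for FT-LCG over CT-LCG in KRT14 cells. Without STMN1, DUT and PCNA the S share was 41.4% and 26.8% in KRT35-led and 31.3% and 35.9% in KRT14 cells, and KRT14 over KRT10 was 17.2 in FT-LCG. With G2/M genes alone KRT14 over KRT10 was 10.1 in CT-LCG. Without the cluster with UBE2C and NUSAP1 among its first genes the S share of KRT14 cells of FT-LCG was 58.5%, and without the sub-cluster led by ELOVL3 that of KRT35-led cells of FT-LCG was 53.5%. No paired analysis was possible because each type had 1 library. Promoter motifs were not analysed here.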

Other observations

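Clusters 0 and 12 entered no compartment, because their median depth in FT-LCG (1112 and 1843.5 UMIs) was under 1 in 3 of that library's. In CT-LCG, where it was 1075 and 2994, they were not that shallow. They also held cycling cells. Of their thinned cells 25 of 843 were cycling in CT-LCG (2.97%, 1.93 to 4.35) and 176 of 1499 in FT-LCG (11.7%, 10.2 to 13.5). KRT14 was at 38.1 and 102 UMIs per 10000 there and KRT35 at 2.28 and 2.98. Cluster 9, a keratinocyte cluster led by SNAI1 and PHLDA2, with UBE2C and NUSAP1 also among its first 6 genes, held 11 cycling cells of 140 in CT-LCG (7.86%, 3.99 to 13.6) and 92 of 356 in FT-LCG (25.8%, 21.4 to 30.7). Its S share was 63.6% in CT-LCG and 44.0% in FT-LCG. Cluster 1, led by STAR and LTF, held 6.43% and 13.3% cycling cells.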
